A study of Mus musculus with 21 samples.

Results

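RNA from brain of mouse embryos at embryonic day 18.5 (E18.5) was compared between a trientine group and a control group. Trientine (TETA) is a polyamine that binds copper and is used as a drug in copper overload. The labels give the control treatment as water and call the TETA group copper-deficient. The 12 libraries taken were all those of the E18.5 count table, 6 control and 6 TETA, out of 21 libraries in the series. The other 9 libraries, 5 control and 4 TETA, came from mice 7 weeks old and are used only where an effect is compared between ages. The labels name no strain, mutation, dose, route or start of treatment, and do not say whether the dam was treated. The extraction text speaks of prefrontal cortex of male mice at 7 weeks, so region and sex at E18.5 were taken as not stated. Nothing in the labels says that libraries of one group came from separate embryos or litters, and how many embryos each group holds is not given. Y-linked transcripts were present in some libraries of each group and at background in others, so a group's libraries are not all repeats of 1 embryo. P-values measure the spread between these libraries, part of which may be technical. Library names have 2 parts (1-1 to 3-2), whose meaning is not given.

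Copper is a cofactor of cytochrome c oxidase, of the superoxide dismutases Sod1 and Sod3 and of several secreted amine oxidases and hydroxylases. It enters cells through Slc31a1, is handed on by chaperones such as Atox1 and Ccs, and leaves through Atp7a. When oxygen or the iron that prolyl hydroxylases need is short, hypoxia-inducible factor (HIF) escapes degradation and switches on genes of glucose uptake, glycolysis and vessel growth. In the late embryonic brain, vessels grow in from the surface, lay down a basement membrane of collagen IV, laminins, nidogens and perlecan, and respond to VEGF made by neural cells.

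Total counts ran from 14668965 to 24292715 per library, and 13794 of 21872 genes passed the filter on low counts. The cortical marker Tbr1 was high, at 243 to 329 CPM (read counts scaled to a common library size). The striatal gene Drd1 was at 17.2 to 22.1 CPM, and the hindbrain gene Hoxb2 was at 0 in all 12 libraries. The choroid plexus gene Ttr stayed at or below 2.67 CPM, and the meningeal collagen Col1a1 at or below 4.71 CPM. The first principal component, with 24.9% of the variance, separated libraries with Y-linked transcripts (4 of 6 control, 3 of 6 TETA) from the others. Both libraries numbered 1-2 had low levels of ribosomal protein transcripts: the mean log2 level of that list was -0.17 in control 1-2 and -0.20 in TETA 1-2, relative to the control mean.

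The difference between the groups was small across the transcriptome. The median log2 fold change (TETA minus control) was -0.003, the lower and upper quartiles were -0.045 and 0.037, and 74 genes differed by more than 0.5 in either direction. The median went up with transcript length, from -0.01 in the shortest quartile of genes to 0.011 in the longest. The test was precise enough for the 95% interval of the fold change to lie within 0.5 log2 units of 0 for 91% of genes. By the quasi-likelihood test in edgeR, after Benjamini-Hochberg adjustment, 0 genes (0%) passed an adjusted p of 0.05, and the smallest adjusted p was 0.133. At an unadjusted p under 0.05 there were 660 genes (4.78%), of which 319 (2.31%) were higher and 341 (2.47%) lower in TETA. That share is close to the threshold itself. DESeq2, run as an alternative on the same counts, called 10 of 13526 genes (0.0739%). Its 9 higher genes were Kdm3a, Dhcr7, Slc2a1, Vwf, Ddit4, Rnf213, Ccnb1ip1, Kdr and P4ha1, and its lower gene was Selenop. All values below are therefore of genes that did not pass the edgeR adjustment unless DESeq2 is named.

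The top of the ranking leaned to one side. Of the 20 genes with the smallest p, 19 were higher in TETA. The count was 38 of the first 50, 63 of the first 100, and 252 of the first 500. Values of the 6 TETA libraries lay entirely apart from those of the 6 control libraries for 43 genes (0.312%), 18 (0.13%) above and 25 (0.181%) below. The plot of fold change against p marks the members of 5 of the lists described here.

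**Figure D1:**
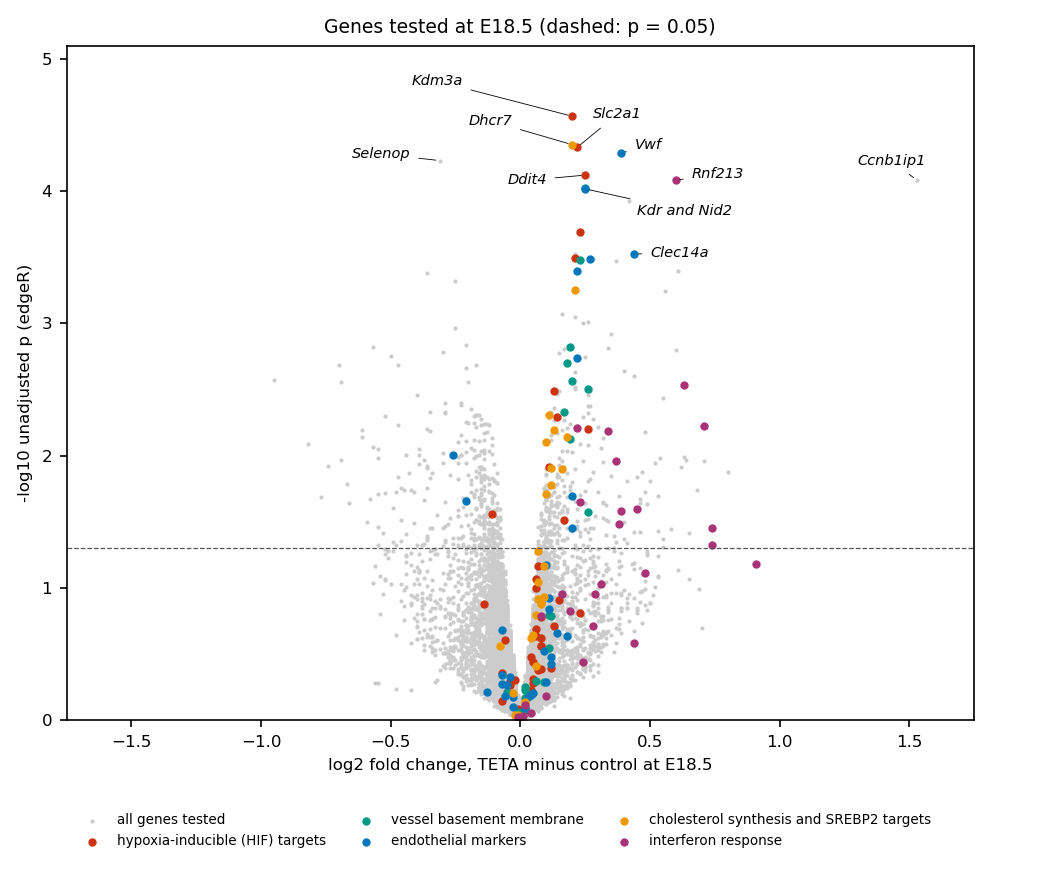
Each point is 1 of 13794 genes tested at E18.5: the horizontal axis is the log2 fold change (TETA minus control), the vertical axis -log10 of the unadjusted edgeR p on a linear scale, and colours mark 5 gene lists (a gene on more than 1 list carries the last colour drawn). Most of the named points with the smallest p lie at log2 fold changes between 0.20 and 0.60 on the higher side, with Selenop at -0.31 on the lower side.

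Of all 13794 genes tested, 6643 (48.2%) had fold changes above 0. At an unadjusted p under 0.05 by edgeR, 2.31% were higher and 2.47% lower. Each list count below is to be set beside these shares. HIF targets held the gene with the smallest p, Kdm3a. Of 43 listed genes, 42 were tested (Car9 was below the filter); 33 had fold changes above 0, 10 were higher and 1 lower at an unadjusted p under 0.05, and the list median was 0.066 against -0.003 for all genes. The promoters of the 4 members with the smallest p, Kdm3a, Slc2a1, Ddit4 and P4ha1, are shown because DESeq2 called these genes and because HIF binds a known short core motif. Each sequence is the 250 bases before the most upstream start that RefSeq annotates (GRCm38.p6, the same assembly as the submitters' mm10), 5′ to 3′ on the gene's strand, with the core ACGTG or its reverse complement CACGT in capitals. They lie at chr6:71632918-71633167 (minus strand), chr4:119108495-119108744 (plus), chr10:59951771-59952020 (minus) and chr10:59323046-59323295 (plus), in the order printed.
Kdm3a: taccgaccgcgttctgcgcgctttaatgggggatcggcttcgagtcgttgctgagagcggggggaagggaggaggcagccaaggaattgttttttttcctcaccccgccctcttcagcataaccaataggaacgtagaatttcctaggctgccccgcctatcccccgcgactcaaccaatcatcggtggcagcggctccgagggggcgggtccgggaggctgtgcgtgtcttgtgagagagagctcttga
Slc2a1: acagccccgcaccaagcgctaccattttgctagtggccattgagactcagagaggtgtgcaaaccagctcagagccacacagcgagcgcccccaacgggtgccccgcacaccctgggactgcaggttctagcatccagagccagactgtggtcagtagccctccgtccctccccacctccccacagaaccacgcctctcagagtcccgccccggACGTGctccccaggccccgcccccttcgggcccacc
Ddit4: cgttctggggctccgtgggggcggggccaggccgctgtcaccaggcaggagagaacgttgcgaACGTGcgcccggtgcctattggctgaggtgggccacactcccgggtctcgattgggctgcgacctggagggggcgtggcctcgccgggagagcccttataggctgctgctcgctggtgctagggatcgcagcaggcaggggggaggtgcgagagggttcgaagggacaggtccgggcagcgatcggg
P4ha1: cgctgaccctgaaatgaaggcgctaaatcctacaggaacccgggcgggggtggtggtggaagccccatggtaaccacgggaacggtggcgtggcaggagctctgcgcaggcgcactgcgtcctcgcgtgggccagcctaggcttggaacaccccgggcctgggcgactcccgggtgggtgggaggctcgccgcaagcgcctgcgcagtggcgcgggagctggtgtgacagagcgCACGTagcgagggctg
The core begins 36 bases before the Slc2a1 start, 187 before Ddit4 and 16 before P4ha1. The Kdm3a window holds no match to ACGTG or CACGT. It does hold GCGTG, another form of the HIF core, which was neither searched nor put in capitals. The shares that follow are of ACGTG alone. Searched on both strands, the core was in 17 of the 34 tested list members with a promoter in the table (50%) and in 2364 of 10921 tested genes with one (21.6%). Of the 11 members at an unadjusted p under 0.05, 6 had a match. The same core was in 5 of 17 glycolysis enzymes (29.4%). A match in these windows is a description of the letters and not of binding.

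Kdm3a, a histone demethylase that is itself a HIF target, had 71.6 to 80.7 CPM in the control libraries (median 76.2) and 84.0 to 90.8 CPM with TETA (median 86.1). No TETA library fell within the control range, and the log2 fold change was 0.20 (SE 0.037). Slc2a1, the glucose transporter of the blood-brain barrier, was at 50.6 to 57.1 CPM in controls (median 53.8) and 56.7 to 68.2 CPM with TETA (median 63.8). Only the lowest TETA library, at 56.7, lay inside the control range, and the log2 fold change was 0.22 (SE 0.044). Ddit4, an inhibitor of mTOR signalling that rises in hypoxia and under glucocorticoids, was at 82.5 to 104 CPM in controls (median 91.7) and 99.6 to 119 CPM with TETA (median 111), with a log2 fold change of 0.25 (SE 0.051). P4ha1, a prolyl hydroxylase subunit for collagen, was at 28.3 to 32.5 CPM in controls (median 29.4) and 31.4 to 37.2 CPM with TETA (median 34.9), with a log2 fold change of 0.23 (SE 0.051). The ranges of both genes overlapped between the groups. DESeq2 called each of these 4 genes, and the edgeR adjusted p was 0.133 for the first 3 and 0.235 for P4ha1. The fitted folds were 1.15 for Kdm3a, 1.17 for Slc2a1 and P4ha1, and 1.19 for Ddit4.

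Vegfa, the growth factor for vessels, had a mean of 86.9 ± 6.73 CPM in controls and 100 ± 5.52 CPM with TETA (SD, n = 6 each), a log2 fold change of 0.21 with adjusted p = 0.244 by edgeR. Pdk1, the kinase that holds pyruvate out of mitochondria, was 0.13 higher on the log2 scale, Mxi1, a Myc antagonist, 0.14 and the hexokinase Hk2 0.26. Wsb1 was the member that was lower at an unadjusted p under 0.05, at -0.11, or -0.07 without control 1-2. Adm, a classic hypoxia-induced peptide, had a log2 fold change of 0.23 with an SE of 0.16, and Slc2a3, the neuronal glucose transporter, one of 0.07 (SE 0.038). Bnip3, Ndrg1 and Bhlhe40, also textbook targets, lay at 0.08, 0.04 and -0.04. The mean log2 level of the tested HIF targets was -0.03 to 0.07 in the control libraries and 0.03 to 0.11 in TETA, relative to the control mean, so the groups overlapped.

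Glycolysis enzymes were all tested. Of the 17, 14 had fold changes above 0, 6 were higher and 0 lower at an unadjusted p under 0.05, and the median was 0.090. Hk2, the first step, was 5.5 to 6.39 CPM in controls (median 5.96) and 5.98 to 8.43 CPM with TETA (median 7.25). Gpi1 and Pfkl, the next steps, had log2 fold changes of 0.12 and 0.15, Eno1 0.16, and Ldha, which makes lactate, 0.13. Of the 6 TETA libraries, TETA 1-2 had the lowest mean log2 level over the list, though not for every enzyme: Eno1 was at 304 CPM there, under every control library, against a TETA median of 395 CPM, while Hk2 was at 7.77 CPM, the second highest TETA value. Without TETA 1-2, 12 enzymes were higher at an unadjusted p under 0.05, and the median was 0.132. The count was 9 without control 3-2, and 4 without control 1-2, 2-1, 2-2 or 3-1 and without TETA 1-1, 2-1, 2-2 or 3-2; the lowest median was 0.062, without control 1-2. With sample quality weights in limma voom the count was 10, and with the splicing list's level as a covariate the count was 4 and the median 0.032.

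**Figure D2:**
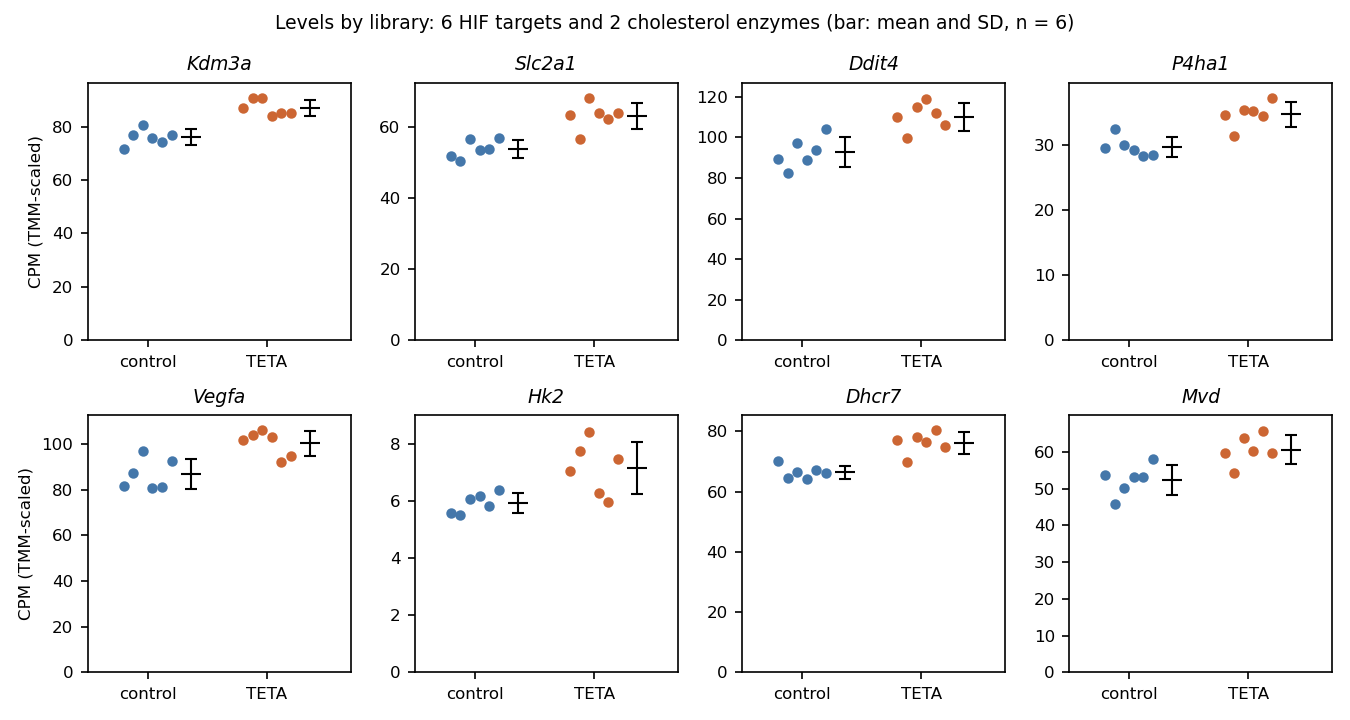
Points are the CPM (TMM-scaled, vertical axis from 0) of single libraries for 6 HIF targets and 2 cholesterol enzymes, blue for the 6 control and orange for the 6 TETA libraries; black bars are the group mean and SD. Kdm3a is the gene whose groups do not overlap, and the other 7 overlap by 1 or more libraries.

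Vessel genes formed another group. Of 35 endothelial markers, 34 were tested; 8 were higher and 2 lower at an unadjusted p under 0.05, 21 had fold changes above 0, and the median was 0.068. The summed level of the markers was 364 to 415 CPM in controls and 403 to 438 CPM with TETA. In bulk libraries, more cells of a type and more RNA per cell cannot be told apart. Vwf, the clotting factor carrier stored in endothelial cells, was at 15.2 to 22.2 CPM in controls (median 17.8) and 21.2 to 25.5 CPM with TETA (median 23.9), a log2 fold change of 0.39 (SE 0.076). Kdr, the main VEGF receptor, was at 34.7 to 40.0 CPM in controls (median 35.9) and 39.0 to 46.3 CPM with TETA (median 44), a log2 fold change of 0.25 (SE 0.051). For each of these genes 1 TETA library lay within its control range. The edgeR adjusted p was 0.133 for both, and DESeq2 called both.

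Flt1, the decoy VEGF receptor, was at 29.2 to 37.1 CPM in controls and 37.4 to 40.4 CPM with TETA, with no overlap and a log2 fold change of 0.22. Clec14a, an endothelial lectin of growing vessels, was at 3.11 to 4.21 CPM in controls and 4.43 to 5.74 CPM with TETA, with no overlap and a log2 fold change of 0.44. Ptprb, the endothelial phosphatase, and Pecam1, a junction protein, were higher by 0.27 and 0.22, and the groups did not overlap for Pecam1. The adjusted p by edgeR was 0.244 for Clec14a and Ptprb, 0.26 for Flt1 and 0.604 for Pecam1. The markers did not share one direction. Aplnr, the apelin receptor of sprouting and venous endothelium, was at -0.26, while its ligand Apln was at 0.20. Ocln, a tight junction protein, was at -0.21. Cldn5, the claudin of the blood-brain barrier, had a log2 fold change of -0.07 (SE 0.052), Cdh5 0.09 (SE 0.082) and Tek -0.03 (SE 0.078).

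All 22 basement membrane genes were tested, 20 had fold changes above 0, 9 were higher and 0 lower at an unadjusted p under 0.05, and the median was 0.109 (0.071 with sample quality weights in limma voom). Nid2, a nidogen that links laminin to collagen IV, was at 12.7 to 14.7 CPM in controls (median 14.0) and 15.9 to 17.5 CPM with TETA (median 16.4). The groups did not overlap, and the log2 fold change was 0.25 (SE 0.053, adjusted p = 0.133 by edgeR). Lama4, the laminin chain of endothelial basement membrane, was at 18.6 to 22.8 CPM in controls and 23.2 to 26.1 CPM with TETA, also without overlap. Lamc1 and Lamb1, its partner chains, had log2 fold changes of 0.19 and 0.20. Col4a1 and Col4a2, the 2 main collagen IV chains, had 0.18 and 0.19, Nid1 0.17, Hspg2 (perlecan) 0.26 and Col18a1 0.26. Sparc, Lamb2, Mmp2, Serpinh1 and Agrn lay between -0.01 and 0.02. The mean log2 level of the list was -0.08 to 0.09 in control and 0.05 to 0.18 in TETA. Of 22 enzymes tested that modify collagen, P4ha1 was higher and P3h3 lower at an unadjusted p under 0.05. Their median was 0.017, with no stable sign: it ran from -0.011 without control 2-1 to 0.025 without TETA 3-1 when single libraries were left out, and was -0.001 without TETA 3-2.

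**Figure D3:**
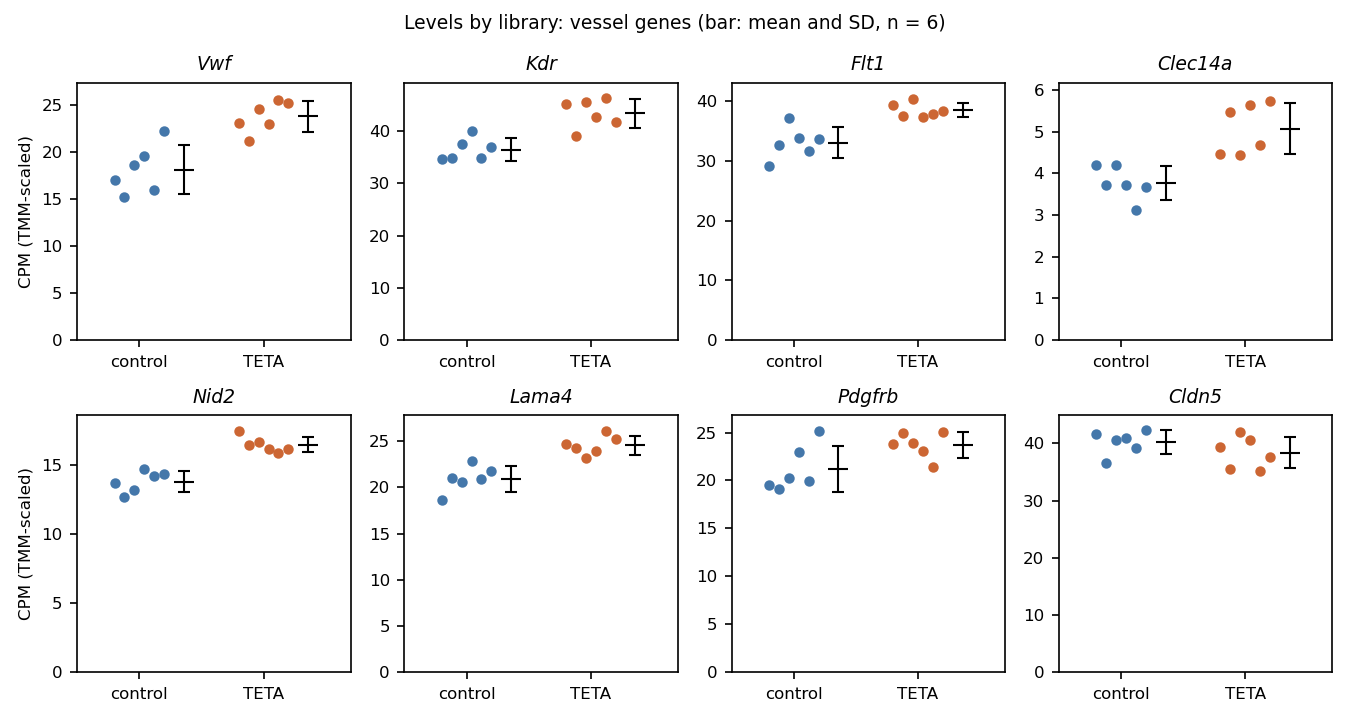
Points are the CPM (TMM-scaled, vertical axis from 0) of single libraries for 8 vessel genes, blue for the 6 control and orange for the 6 TETA libraries, with black bars for the group mean and SD. Flt1, Clec14a, Nid2 and Lama4 do not overlap between the groups, while Cldn5 has a mean of 40.2 CPM in controls and 38.4 CPM with TETA.

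Further lists held vessel growth signals and markers of the other cells of the vessel wall. Lists share members, so their counts are not independent. Kdr and Flt1 are counted both as endothelial markers and as angiogenic genes, and Vegfa both as a HIF target and as an angiogenic gene. The HIF targets Slc2a1, P4ha1 and Hk2 are counted again among barrier transporters, collagen enzymes and glycolysis enzymes. Of 29 angiogenic signalling genes, 5 were higher and 0 lower at an unadjusted p under 0.05 (Kdr, Vegfa, Flt1, Unc5b and Apln), and the median was 0.050. Notch ligand Dll4 and the angiopoietins Angpt1 and Angpt2 were at 0.05, -0.03 and -0.13. Of 18 pericyte and smooth muscle markers, 16 were tested and 3 were higher: Vtn at 0.24, Pdgfrb, the receptor that recruits pericytes, at 0.16, and Higd1b at 0.26. Rgs5, the most abundant pericyte marker tested, was at 107 CPM in both groups. Without TETA 3-2, where this list stood highest, 1 pericyte marker was below that threshold and the median went from 0.098 to 0.030 (0.043 without TETA 3-1); without control 2-1 there was also 1, and without control 3-2 there were 5. Of 22 barrier transporters tested, Slc2a1 and Slc3a2 were higher, Tfrc, the transferrin receptor, was lower at -0.20, and the median was 0.034. That median was 0.012 without control 1-1, 0.014 without control 1-2 or without TETA 3-1, and 0.022 without control 2-2 or 3-1. Without TETA 2-1 there were 1 higher and 3 lower; there was 1 higher without control 2-1, and there were 2 lower without control 1-1, 1-2 or 3-1. Meningeal fibroblast markers had 0 of 17 tested members at an unadjusted p under 0.05. Their mean log2 level ranged from -0.33 to 0.45 in control and from -0.24 to 0.67 in TETA, highest in TETA 3-2. Red blood cell markers had 0 of 11, and their level ranged from -0.30 to 0.24 and from -0.29 to 0.22. The part of these cells in the vessel differences was not tested.

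Sterol synthesis genes were a further group. Of 28 genes of cholesterol synthesis and SREBP2 targets, all tested, 23 had fold changes above 0, 10 were higher and 0 lower at an unadjusted p under 0.05, and the median was 0.075. Dhcr7, the last enzyme of cholesterol synthesis, was at 64.1 to 70.1 CPM in controls (median 66.4) and 69.8 to 80.5 CPM with TETA (median 76.9). The lowest TETA library lay just under the highest control library, the log2 fold change was 0.20 (SE 0.038), and DESeq2 called it. Mvd, a mevalonate pathway enzyme, had a mean of 52.3 CPM in controls and 60.6 CPM with TETA, a log2 fold change of 0.21 with adjusted p = 0.316 by edgeR. Ebp, Nsdhl, Tm7sf2 and Mvk lay between -0.01 and 0.02. The sterol regulatory element TCACNCCAC (N, any base), searched on both strands of the same windows, was in 1 of 19 cholesterol genes with a promoter in the table (5.26%), in 0 of the 5 at an unadjusted p under 0.05, and in 101 of 10921 tested genes (0.925%). Of 15 fatty acid genes, 3 were higher (Elovl6 0.10, Fasn 0.13, Fads2 0.07), the median was 0.035, and without control 3-1 or without TETA 3-1 none (0) was below that threshold; without control 2-1 or without TETA 3-2 there was 1.

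**Figure D4:**
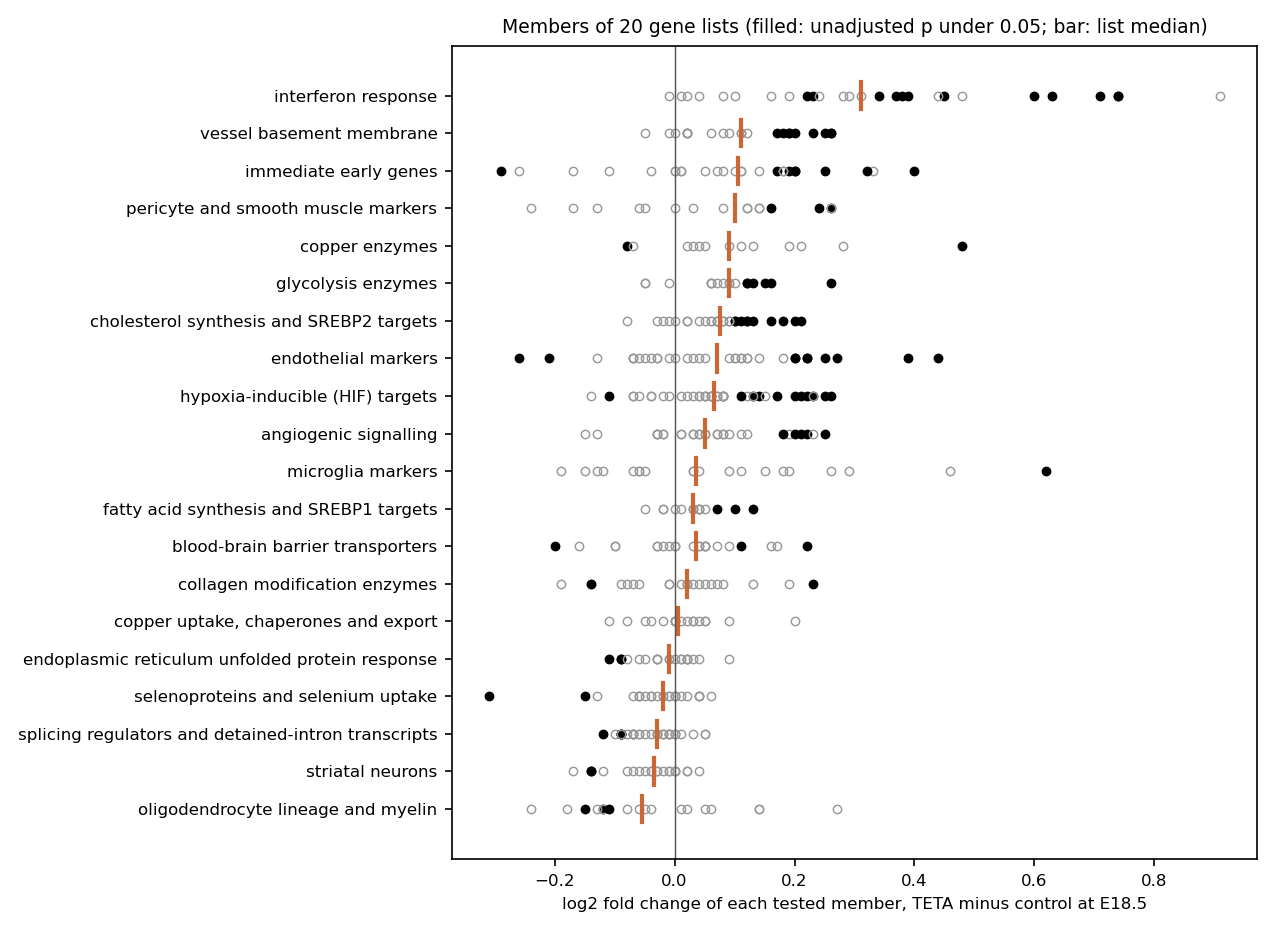
Each point is the log2 fold change (TETA minus control, horizontal axis) of 1 tested member of 20 gene lists (rows); filled points have an unadjusted p under 0.05 by edgeR, and orange bars are list medians. The interferon list has the highest median, 0.309, the basement membrane list 0.109, and the oligodendrocyte list the lowest, -0.055.

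Interferon response genes had the highest median of all 62 lists, 0.309, and a wide spread between libraries. Of 38 listed genes, 27 passed the filter; 26 of these had fold changes above 0, and 12 were higher and 0 lower at an unadjusted p under 0.05. Rnf213, an interferon-induced ubiquitin ligase that is also expressed in vessels, was at 6.35 to 9.50 CPM in controls (median 7.96) and 8.84 to 15.2 CPM with TETA (median 12), a log2 fold change of 0.60 (SE 0.12) called by DESeq2. Oasl2 was at 1.24 to 1.88 CPM in controls and 1.49 to 3.92 CPM with TETA, and Bst2, a protein that tethers virus to the cell surface, at 0.882 to 1.81 and 1.18 to 3.43 CPM. B2m and H2-D1, parts of class I antigen presentation, had log2 fold changes of 0.34 and 0.22; how the counting treated reads shared by near-identical class I genes is not given in the sources used here. The list's mean log2 level was 0.46 in TETA 1-1, 0.45 in TETA 2-1 and 0.75 in TETA 2-2, above all control libraries (-0.26 to 0.20). It was 0.08 in TETA 1-2, -0.02 in TETA 3-1 and 0.00 in TETA 3-2, inside the control range. Without TETA 2-2, 6 members were below that threshold and the median was 0.233. The count was 20 of 38 without the filter, 19 of 32 with libraries of the same first number summed, and 5 of 12 with a mean of at least 50 counts. The medians in these settings were 0.425, 0.384 and 0.205, so the size of the median depended on the filter.

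The microglia list varied with it in part: its mean log2 level was 0.22, 0.06 and 0.20 in TETA 1-1, 2-1 and 2-2, and -0.08 to -0.05 in the other TETA libraries. Its summed level was 122 to 131 CPM in controls and 117 to 134 CPM with TETA, no member was at 0 in all libraries, and 1 of 20 markers, Mrc1 of border macrophages at 0.62, was higher at an unadjusted p under 0.05. Mrc1 was highest in TETA 3-2, at 3.83 CPM, and its log2 fold change was 0.34 without that library. Cx3cr1 and P2ry12, which define microglia, were at -0.05 and -0.13. The part of these cells in the interferon differences was not tested. The promoter of Bst2 is shown because it holds the interferon-stimulated response element core (GAAA, a pair of any bases, then GAAA), in capitals, in 2 overlapping matches that begin 130 and 124 bases before the start; it lies at chr8:71537473-71537722 on the minus strand of the same assembly.
Bst2: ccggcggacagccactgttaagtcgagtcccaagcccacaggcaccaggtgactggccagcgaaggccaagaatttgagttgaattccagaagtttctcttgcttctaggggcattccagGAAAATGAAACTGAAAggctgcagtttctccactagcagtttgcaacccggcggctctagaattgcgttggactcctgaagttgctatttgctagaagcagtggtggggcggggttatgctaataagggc
That core, searched on both strands, was in 7 of 23 tested interferon genes with a promoter in the table (30.4%) and in 261 of 10921 tested genes with one (2.39%). Neither Rnf213 nor Oasl2 had it in the same window.

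**Figure D5:**
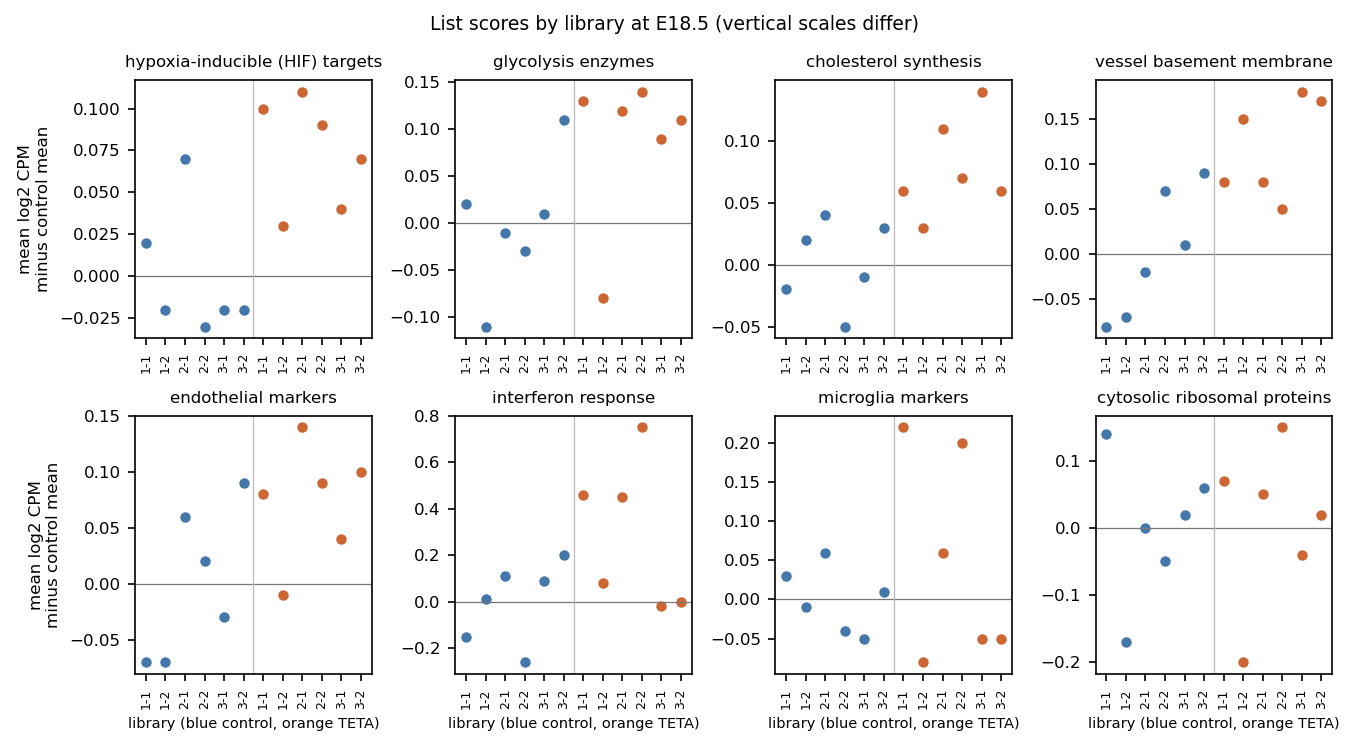
Each point is 1 library (control blue, TETA orange, labelled by number) and the vertical axis is the mean log2 CPM of a list's tested members minus the control mean, with a scale of its own in each of 8 panels. Interferon genes are high in TETA 1-1, 2-1 and 2-2 (0.45 to 0.75), glycolysis is low in TETA 1-2 at -0.08, and ribosomal protein genes are low in both libraries numbered 1-2.

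Immediate early genes, which follow neuronal firing and other stimuli, included 7 higher and 1 lower of 26 tested at an unadjusted p under 0.05, with a median of 0.103 (0.068 without TETA 1-2). Egr1 was at 6.88 to 11.8 CPM in controls (median 8.67) and 9.96 to 15.1 CPM with TETA (median 11.4), a log2 fold change of 0.40. Nr4a3, Nr4a1, Ier2 and Arc were at 0.20, 0.19, 0.25 and 0.32 (Nr4a1 0.12 without TETA 1-2), and Klf4 was at -0.29. Fos, the classic member, had 0.08 (SE 0.18). The count depended on single libraries: it was 3 without TETA 1-2, and 4 without control 1-1, without control 2-2 or without TETA 2-1. 

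Selenop had the smallest p of the genes lower with TETA. Selenop, the secreted selenium carrier, was at 33.4 to 43.0 CPM in controls (median 40.2) and 29.1 to 33.4 CPM with TETA (median 31.3). The log2 fold change was -0.31 (SE 0.061), with adjusted p = 0.133 by edgeR, and DESeq2 called it. Of 25 selenoprotein and selenium uptake genes tested, Secisbp2, which is needed to insert selenocysteine, was the other lower one at -0.15, and the median was -0.022. The count was 1 without control 1-2, 2-2 or 3-1, and without TETA 1-1, 2-1 or 3-1. The median was -0.005 without TETA 1-2, -0.012 without control 3-1, -0.034 without control 1-2 and -0.037 without TETA 2-2. Gpx1, Gpx4 and Txnrd1 lay between -0.01 and 0.01. Fancf of the Fanconi DNA repair complex (-0.36), Srrd (-0.25), the mitochondrial carrier Slc25a16 (-0.17) and the zinc finger gene Zfp960 (-0.47) did not overlap between groups, with adjusted p of 0.26, 0.286, 0.622 and 0.622 by edgeR.

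Other genes near the top of the ranking belong to none of these groups. Ccnb1ip1, a ubiquitin ligase known from meiotic recombination, had the largest fold change of the genes DESeq2 called. It was scarce, at 0.0954 to 1.18 CPM in controls (median 0.511) and 0.859 to 2.4 CPM with TETA (median 1.8), and the fitted log2 fold change was 1.53 (SE 0.31). The ranges overlapped. Mrc2, a receptor that takes up collagen, had means of 4.92 and 6.63 CPM, and Myh9, a non-muscle myosin, 63.1 and 73.3 CPM, with adjusted p of 0.15 and 0.244 by edgeR. On the lower side, Pik3r6 (-0.57), Gal3st1, an enzyme of myelin sulfatide synthesis (-0.50), the matrix gene Col6a1 (-0.30), the chromatin remodeller subunit Ino80c (-0.21), Ccdc84 (-0.25), the zinc finger gene Zfp248 (-0.21) and the predicted gene Gm3604 (-0.70) had adjusted p between 0.503 and 0.635 by edgeR, and their ranges overlapped.

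Over all genes tested, 7151 of 13794 had fold changes below 0 and 2.47% were lower at an unadjusted p under 0.05 by edgeR. Of 35 splicing regulators and detained-intron transcripts tested, 30 had fold changes below 0 and 4 were lower at an unadjusted p under 0.05 (Srsf2, Srsf6, Rsrp1 and Clk1, from -0.12 to -0.09), with a median of -0.033. That median was -0.005 without control 1-2, -0.053 without control 1-1 or without control 3-2, and -0.064 without TETA 1-2. Without TETA 1-2 there were 9 lower members, and 2 without control 2-1 or without TETA 1-1, 3-1 or 3-2. There was 1 with libraries of the same first number summed, and there were 7 without both libraries numbered 1-2. Of 22 striatal genes, 19 were below 0 and 2 were lower: Rarb, a retinoic acid receptor, and Adora2a, an adenosine receptor, both at -0.14. Drd1 and Drd2 were at 0.02 and -0.01, and without TETA 1-2 or without TETA 2-2 there were 4. Of 18 oligodendrocyte lineage genes tested, Gpr17, Olig1 and Lhfpl3 were lower, at -0.15, -0.12 and -0.11 (Olig1 -0.07 without TETA 1-2). That count was 0 without control 1-2 and 1 without control 3-1 or without TETA 1-2. The list median of -0.055 was -0.028 without TETA 3-1 and -0.036 without control 1-1. Of 21 unfolded protein response genes, Manf, Dnajb11 and Xbp1 were lower, at -0.11, -0.09 and -0.09, with 10 members above 0, 11 below and a median of -0.009. That median was -0.003 without TETA 1-2, -0.004 without control 1-1, -0.018 without TETA 3-2 and -0.022 without control 2-1 or 2-2. The count was 1 without control 1-1, without control 1-2 or without TETA 3-1.

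Of 18 copper uptake, chaperone and export genes tested, 0 were at an unadjusted p under 0.05 in either direction. The median was 0.005 and took either sign as single libraries were left out, from -0.001 without control 2-2 to 0.025 without control 3-2. Slc31a1, the importer, was at 42.6 to 52.1 CPM in controls and 42 to 51.4 CPM with TETA, a log2 fold change of 0.05 (SE 0.053), which ran from 0.02 without control 3-2 to 0.08 without control 1-1 or without TETA 2-1. Atp7a, the exporter, had 0.09 (SE 0.063). Sod1 was at 159 ± 14.0 CPM in controls and 161 ± 11.7 CPM with TETA (SD, n = 6 each). The chaperone genes Atox1 and Ccs had 21.2 and 10.5 CPM in controls and 21.1 and 10.5 CPM with TETA. The metallothionein genes Mt1 and Mt2, which rise with free zinc or copper, had log2 fold changes of -0.03 (SE 0.077) and -0.05 (SE 0.092), which ran from -0.09 to 0.01 and from -0.12 to -0.003 with single libraries left out. Of 20 genes of copper enzymes, 13 passed the filter; 11 of these had fold changes above 0, 1 was higher and 1 lower at an unadjusted p under 0.05, and the median was 0.092. That median was 0.04 without control 2-2, 0.06 without TETA 3-2 and 0.023 with sample quality weights in limma voom, and 0.033 over the 7 members with a mean of at least 50 counts. Sod3, the secreted superoxide dismutase, was at 1.02 to 1.7 CPM in controls and 1.43 to 2.08 CPM with TETA, a log2 fold change of 0.48 (SE 0.16, adjusted p = 0.801 by edgeR). Pam, the copper enzyme that amidates neuropeptides, was at -0.08. The signs of Atox1, Ccs, Sod1, Mt1 and Mt2 changed between analysis settings, as their values lay near 0.

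Several mitochondrial, translation and signalling lists had 0 members at an unadjusted p under 0.05 by edgeR. These were the 32 tested genes of complex IV, the copper enzyme of respiration (median -0.008), 36 of complex I (-0.001), 25 of complexes III and V (0.017), 25 of the tricarboxylic acid cycle (-0.003), 68 cytosolic ribosomal proteins (0.009), 34 mitochondrial ribosomal proteins (-0.044, with 27 below 0), 31 proteasome subunits (-0.006), and 30 genes of the MEK-ERK and ULK kinases (0.011). Of the 62 lists, 20 had 0 members below that threshold. Voltage-gated channels (39 tested, median 0.019), GABA receptors (21, -0.015) and Wnt genes (28, 0.020) were among them. Of 37 autism-associated genes tested, 3 were higher and 1 lower, with a median of 0.026. Of all genes tested, 2.31% were higher and 2.47% lower at the same threshold.

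The same contrast at 7 weeks gave a different set of values. In one edgeR fit over all 21 libraries and 14660 genes, the effect of TETA at E18.5 differed from that at 7 weeks for 454 genes (3.1%) at an adjusted p under 0.05, 209 with the E18.5 effect above and 245 below. At 7 weeks 1484 genes (10.1%) were higher and 1591 (10.9%) lower at an unadjusted p under 0.05. The extraction text gives male mice at 7 weeks, while only some E18.5 libraries held Y-linked transcripts. The libraries at 7 weeks may also come from another region, so age, region and sex cannot be told apart. Basement membrane genes had a median of 0.109 at E18.5 and -0.084 at 7 weeks, and 6 of 22 differed, all with the E18.5 effect above. Marker lists of other regions and tissues were also low with TETA at 7 weeks: the striatal list had a 7-week median of -0.995, with 19 of 22 lower at an unadjusted p under 0.05 and 17 differing between ages, the meningeal list one of -0.363 and the choroid plexus list one of -0.246. Their part in the differences between ages was not tested. Lama4 was at -0.26 at 7 weeks (difference 0.49, adjusted p = 0.00277 by edgeR), Nid2 at -0.22 (difference 0.47, adjusted p = 0.0268) and Kdr at -0.24 (difference 0.49, adjusted p = 0.013). Mrc2, a collagen uptake receptor, was 0.42 at E18.5 and -0.57 at 7 weeks (difference 0.99, adjusted p = 1.45e-05 by edgeR). Of 36 interferon genes in that fit, 4 differed, all above at E18.5. Splicing regulators went the other way: 21 of 35 differed, all with the E18.5 effect below, and their 7-week median was 0.212.

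HIF targets had medians of 0.067 at E18.5 and 0.063 at 7 weeks, and 2 of 42 differed. One was Wsb1, at -0.11 at E18.5 and 0.35 at 7 weeks. Slc2a1, Ddit4, P4ha1 and Vegfa had 7-week log2 fold changes of 0.34, 0.55, 0.25 and 0.23, with adjusted p of 0.0019, 2.27e-05, 0.00523 and 0.0346 by edgeR. Hk2 was at -0.05 at 7 weeks, with adjusted p = 0.843 by edgeR. The difference between ages had an adjusted p of 0.106 for Ddit4 and 0.551 for Kdm3a, which was at 0.11 at 7 weeks. Glycolysis enzymes had medians of 0.091 and -0.076, and cholesterol genes 0.076 and -0.039, with 0 of 17 and 2 of 28 differing.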

How the data were processed

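The authors deposited whole-number read counts per gene symbol in 1 table for each age, per the file headers. The submitters' processing notes name STAR 2.7.1a, featureCounts 2.0.1 and mm10, with no role given. Libraries were TruSeq stranded mRNA libraries, per the labels' protocols. In the E18.5 table, 1940 genes were 0 in control 1-1 and above 0 elsewhere, and all their counts were multiples of 11; they were divided by 11. None (0) of them passed the filter. Every pair of replicates differed by more than counting noise (lowest chi-square per gene over 30 pairs, 2.29).

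Genes were kept by filterByExpr (minimum count 10), scaled by TMM and tested with edgeR 4.0.16 (quasi-likelihood, Benjamini-Hochberg adjustment) in R 4.3.3. The effects at both ages were compared in 1 fit over 4 group means, from tables counted in the same unit but deposited separately. DESeq2 1.42.0 and limma 3.58.1 served alternatives. The fit was checked on simulated counts. The standard error (SE) came from the fold change and the F statistic. List levels are means of log2 CPM (prior count 2). Transcript length and GC content came from GENCODE for 99% of tested genes.

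The lists, members and tests were chosen with earlier results of these data known, so no list was tested. Genes named were the 12 higher and 12 lower with the smallest p, DESeq2 calls, up to 4 members in each direction at an unadjusted p under 0.05 of each described list, and 7 copper genes. Other genes were named after their values were seen. Some genes that this rule names are not reported here. Same-numbered libraries were checked for pairing: the correlations of their deviations from the group means ran from -0.275 to 0.284 (mean 0.0185), so the numbers were not taken as pairs. Alternatives were undivided counts, library totals, no filter or a mean of at least 50 counts, DESeq2, limma voom with quality weights, each library left out, replicate blocks, summed libraries and Y-linked level as a covariate; added after seeing the data were leaving out both libraries numbered 1-2, a splicing-list covariate and centring on length and GC content.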

Additional observations from a re-analysis of the deposited data

Results flagged for a closer look

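Single libraries stood apart from the other 5 of their group in 11 of 206 groups of values examined, where chance gives 10.3. TETA 1-2 did so most often: it was low in Eno1 (8.25 log2 CPM, the nearest other TETA library at 8.62), Pfkl (6.58, nearest 6.8), Sod1 (7.11, nearest 7.33) and Olig1 (5.63, nearest 5.87), and in the glycolysis list, at -0.0797 relative to the control mean against 0.0925 in the nearest. Control 1-2 was high in Wsb1 (8.16 log2 CPM, nearest 8) and P3h3 (5.26, nearest 5.14). Control 2-2 was low in Ino80c (4.5, nearest 4.75), and TETA 3-1 was high in Elovl6 (7.21, nearest 7.08). TETA 3-2 was high in the pericyte list (0.23, nearest 0.0661), and control 3-1 in the collagen modification list (0.0596, nearest 0.000562).

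Of 82 named genes, 23 had a TETA effect that differed between ages by edgeR (adjusted p under 0.05), as did 454 of all 14660 genes (3.1%). Most of the 82 were named for small p at E18.5, one of the effects in this difference, so their share is raised by that choice and nothing is read from it. The difference (E18.5 minus 7 weeks, log2) was above 0 for Adora2a (2.21), Bst2 (1.15), Oasl2 (1.04), Mrc2 (0.99), Mrc1 (0.97), Rarb (0.8), Sod3 (0.66), Rnf213 (0.64), Kdr (0.49), Lama4 (0.49), Nid2 (0.47), Mvd (0.4) and Fasn (0.27). It was below 0 for Pik3r6 (-0.8), Ccdc84 (-0.66), Col6a1 (-0.64), P3h3 (-0.49), Clk1 (-0.47), Wsb1 (-0.46), Rsrp1 (-0.36), Srsf6 (-0.31), Manf (-0.27) and Srsf2 (-0.19). For Adora2a and Rarb the 7-week fold changes were -2.35 and -0.94. For Mvd and Fasn they were -0.19 and -0.14, with 7-week adjusted p of 0.189 and 0.128.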

How the results depend on the processing

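The count of genes past the adjusted threshold, 0 with edgeR, was 10 with DESeq2, 8 with limma voom quality weights, 2 with libraries of the same first number summed and 7 without both libraries numbered 1-2. The genes called with summed libraries were Ccnb1ip1 and Gm2004, and of these only Ccnb1ip1 was also a DESeq2 call. Leaving out single libraries gave 0 to 7: 3 without control 3-2 (Ddit4, Selenop, Vwf) and 7 without TETA 1-2 (Ddit4, Dhcr7, Eno1, Kdr, Slc2a1, Tuba1c, Vwf). The count at an unadjusted p under 0.05 was 509 to 947 with single libraries left out, 1014 with quality weights and 996 without both libraries numbered 1-2. A replicate block gave 0 adjusted calls with the full or the first number, and 719 or 675 genes at an unadjusted p under 0.05; same-numbered libraries correlated best with each other in 2 of 6 cases. The count differing between ages was 290 to 622 with single libraries left out, lowest without TETA replicate 3 of 7 weeks. Signs reversed for copper genes near 0: Ccs (-0.0002 undivided and with at least 50 counts, -0.01 with library totals, -0.0045 with voom, -0.03 with the Y-linked covariate, -0.05 with the splicing covariate, -0.03 to 0.05 with single libraries left out), Atox1 (0.0041 with voom, 0.01 summed, 0.02 without both libraries numbered 1-2, -0.06 to 0.05), Sod1 (-0.0007 and -0.04 with the covariates, -0.02 to 0.06), Mt1 (0.01 with voom, -0.09 to 0.01) and Mt2 (0.01 without both libraries numbered 1-2). The interferon count of 12 was 20 without a filter, 5 with at least 50 counts and 19 with summed libraries. With quality weights the glycolysis count was 10, the splicing count 8 and the striatal count 4. With the splicing covariate the splicing count was 2 and its median 0.001, the fatty acid count 1, and the glycolysis count 4 with a median of 0.032. That covariate is the mean level of the splicing list itself. The move of the splicing median towards 0 was therefore fixed in advance, and nothing is read from it. Centring on length and GC content left the HIF, basement membrane, cholesterol, glycolysis and interferon medians at 0.065, 0.093, 0.089, 0.095 and 0.312. The cause of these changes was not tested. Depth limits the precision of genes near the count filter.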
